A study of Mus musculus with 2 samples.

Results

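The transcripts described here are those of the 7 non-catalytic subunits of the mouse Ccr4-Not complex, Cnot1, Cnot2, Cnot3, Cnot4, Cnot9, Cnot10 and Cnot11. They were chosen by gene symbol, with earlier results of these data known. All 7 of 7 were among the 32286 features of both libraries. Ccr4-Not shortens the poly(A) tails of mRNAs in the cytoplasm, the step that opens the decay of most mRNAs. Its deadenylases, a Caf1-type enzyme (Cnot7 or Cnot8) and a Ccr4-type enzyme (Cnot6 or Cnot6l), are held by the large scaffold protein Cnot1. The other subunits attach to other stretches of the scaffold: Cnot2 and Cnot3 form the NOT module at its C-terminal end, Cnot9 binds near its middle and takes up peptides of RNA-binding proteins and of the Tnrc6 proteins of miRNA silencing, and Cnot10 with Cnot11 form a module at its N-terminal end. Cnot4 is an E3 ubiquitin ligase that is only loosely bound in mammals. Cnot1, Cnot2 and Cnot3 are known to be needed for the maintenance of mouse embryonic stem cells.

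Single-cell transcriptomes came from 2 mixed libraries, 1 per stage and without replicates. The first held mouse embryonic stem cells (ESCs) of the ICR strain in serum/LIF medium on feeder cells (0 h), and the second held epiblast-like cells (48h-EpiLCs), which had been differentiated for 48 h on Matrigel with activin A, bFGF and KSR. Each mixed equal numbers of wild-type (WT) cells carrying the ROSA mT/mG reporter, which transcribes tdTomato, and Cnot8 knockout (KO) cells. The authors derived Cnot8 KO lines from blastocysts of heterozygous parents, of a mouse strain founded by Cas9 editing in an early exon of the gene. The genotype label of both libraries reads wild type although both were mixtures, and the line of each cell had to be read from its transcripts. Reads were counted as unique molecular identifiers (UMIs), each standing for 1 captured mRNA molecule, from the 3′ ends of transcripts.

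The ESC library had 144584246 UMIs in 13184 barcodes and the 48h-EpiLC library 163771168 UMIs in 12427 barcodes. After removal of cells in which fewer than 1000 genes were detected or over 10% of UMIs were mitochondrial, 11054 and 9400 remained. A cell was taken as WT when it held at least 1 tdTomato UMI and none of the Y-linked genes Ddx3y, Eif2s3y, Kdm5d and Uty, and as KO when it held no tdTomato UMI and at least 2 UMIs of those 4 genes. This gave 435 WT and 2978 KO ESCs and 368 WT and 2977 KO 48h-EpiLCs, with median depths of 13151, 13368, 15598 and 17628 UMIs. The levels of these markers were therefore fixed by the rule. Of the 517 and 452 cells with a tdTomato UMI, 35 in each library also held at least 2 Y-linked UMIs (6.77%, exact 95% interval 4.76 to 9.29, and 7.74%, 5.45 to 10.6), and 47 and 49 held 1. A further 5321 and 4247 cells held neither kind of marker, and 2238 and 1724 held 1 Y-linked UMI and no tdTomato UMI. All of these were left out. The libraries shared 41 cell barcodes, 26 of them kept in both. The lines differ in sex-linked transcripts and in reporter besides Cnot8, and the stages differ in library, so the Cnot8 genotype cannot be told apart from these other differences of the line, nor the stage from its library.

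The summed level of 5 formative genes (Fgf5, Otx2, Pou3f1, Dnmt3b, Lef1) was 378 UMIs per 1000000 UMIs (CPM) in WT ESCs, 390 in KO ESCs, 1195 in WT 48h-EpiLCs and 1024 in KO 48h-EpiLCs, so the stage labels and these markers pointed the same way. Cnot8 itself stood at 43.1 CPM in WT ESCs, 72.1 in KO ESCs, 49.7 in WT 48h-EpiLCs and 62.6 in KO 48h-EpiLCs. It was not lower in KO cells. Counts from the 3′ end need not show an edit in an early exon, and the label was not checked by them.

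The promoters of the members are shown first for Cnot3 and Cnot4, whose levels over the 4 cell classes resembled each other most, and for Cnot11, which resembled the other members least. The sequences are RefSeq (GRCm38.p6), which matched 6 of the 7 members. They are the bases before the transcription start in RefSeq, 5′ to 3′ on the strand of the gene, up to 250, ending where an annotated exon begins. The start that RefSeq gives for Cnot11 lies inside the gene as GENCODE annotates it, downstream of its first GENCODE start, so the stretch of Cnot11 is not the region before that outer start. Capitals mark the GC box GGGCGG, the CCAAT box CCAAT and the ETS core CCGGAAG on either strand; none of the 3 motifs contains another.
Cnot3, chr7:3645019-3645267, plus strand: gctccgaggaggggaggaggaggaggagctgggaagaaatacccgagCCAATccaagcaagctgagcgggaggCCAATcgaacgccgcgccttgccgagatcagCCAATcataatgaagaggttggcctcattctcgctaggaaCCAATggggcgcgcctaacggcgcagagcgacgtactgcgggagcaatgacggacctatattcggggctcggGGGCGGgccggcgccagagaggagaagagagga
Cnot4, chr6:35133738-35133987, minus strand: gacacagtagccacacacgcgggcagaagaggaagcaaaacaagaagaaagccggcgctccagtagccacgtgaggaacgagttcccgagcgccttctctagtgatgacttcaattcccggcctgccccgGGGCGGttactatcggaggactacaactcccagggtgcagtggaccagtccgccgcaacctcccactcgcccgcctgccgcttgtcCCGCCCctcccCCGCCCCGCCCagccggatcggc
Cnot11, chr1:39535451-39535553, plus strand: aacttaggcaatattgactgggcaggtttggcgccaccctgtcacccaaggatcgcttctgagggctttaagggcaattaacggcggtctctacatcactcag
The full window of 250 bases held 4 CCAAT boxes and 1 GC box for Cnot3, and 4 GC boxes and no CCAAT box for Cnot4. The window of Cnot11, whose printed stretch of 103 bases holds no match, had 3 GC boxes and 1 ETS core further downstream. They lie in the part of the window left off the print, from where an annotated exon of the gene begins. Over the 7 windows of the 6 matched members (Cnot2 has 2 start sites) a GC box was present in 6, against 32.7% of all 32851 promoter windows, a CCAAT box in 1 against 33.9%, and an ETS core in 2 (Cnot10 and Cnot11) against 6.91%. The G+C content of the windows ran from 33.2% at the internal start of Cnot2 to 65.6% at Cnot11, beside a median of 52.4% over all promoters. Cnot3 and Cnot4, whose levels were most alike, both held a GC box, as did Cnot11, and differed in the CCAAT box. Whether these motifs bear on the levels was not tested.

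In the annotation used (GENCODE M21, GRCm38, the build of mm10) Cnot1 lies on chromosome 8 from 95719451 to 95807464, Cnot2 on chromosome 10 from 116485161 to 116581511, Cnot3 on chromosome 7 from 3645268 to 3661109 and Cnot4 on chromosome 6 from 35022065 to 35133724. Cnot9 lies on chromosome 1 from 74506058 to 74530842, Cnot10 on chromosome 9 from 114585878 to 114640184 and Cnot11 on chromosome 1 from 39534992 to 39546889. None lies on a sex chromosome. Leng1 overlaps Cnot3, Usp37 overlaps Cnot9, 4930513N10Rik overlaps Cnot1 and 5330438D12Rik overlaps Cnot2, each on the opposite strand. Cell Ranger, run at its defaults for these counts, takes reads on the strand of the gene.

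Each level below is the CPM over all cells of a class, with an exact Poisson interval at 95%; ratios carry an exact binomial interval at 95%. These intervals cover counting error only, cells of a library are not replicates, and no test of line or stage was possible. Because capture at the 3′ end differs between genes, the order of the genes is an order of captured UMIs. A class average also cannot tell a change in all cells from one in some of them. The counts per cell given further on cannot decide this either, since most cells held few UMIs of any member.

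Cnot1, the scaffold, was the second most captured member, with 129 CPM in WT ESCs (interval 121 to 139), 136 in KO ESCs (133 to 140), 97.9 in WT 48h-EpiLCs (90.3 to 106) and 102 in KO 48h-EpiLCs (99.1 to 104). The ESC classes lay above the 48h-EpiLC classes, and within each stage the WT and KO intervals overlapped. The KO over WT ratio was 0.07 on the log2 scale in ESCs (−0.03 to 0.18) and 0.05 in 48h-EpiLCs (−0.07 to 0.18), the smallest of all members at both stages. With TMM scaling (trimmed mean of M values, which sets the bulk of genes to no change) the ESC value turned to −0.025.

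Cnot3, of the NOT module, was the most captured member and supplied 30.2% of all member UMIs in WT ESCs. It stood at 165 CPM in WT ESCs (155 to 176), 209 in KO ESCs (205 to 213), 136 in WT 48h-EpiLCs (127 to 146) and 162 in KO 48h-EpiLCs (159 to 166). KO ESCs were highest and WT 48h-EpiLCs lowest, while WT ESCs and KO 48h-EpiLCs did not differ beyond counting error (log2 difference 0.03, −0.07 to 0.12). Its partner Cnot2 was lower, with 58.3 CPM in WT ESCs (52.5 to 64.7), 73.0 in KO ESCs (70.5 to 75.5), 50.3 in WT 48h-EpiLCs (44.9 to 56.2) and 63.2 in KO 48h-EpiLCs (61.1 to 65.2). KO cells had more Cnot2 than WT cells at both stages, by 0.32 (0.17 to 0.48) and 0.33 (0.16 to 0.50) on the log2 scale. For Cnot3 the same ratios were 0.34 (0.24 to 0.43) and 0.25 (0.15 to 0.35).

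Cnot9, the adaptor-binding subunit, varied least, from 48.2 CPM in WT 48h-EpiLCs (42.9 to 54.0) through 53.6 in WT ESCs (48.0 to 59.7) and 57.0 in KO 48h-EpiLCs (55.1 to 58.9) to 58.1 in KO ESCs (55.9 to 60.4). No 2 neighbours in that order differed beyond counting error. The log2 ratio of KO over WT was 0.12 in ESCs (−0.05 to 0.29) and 0.24 in 48h-EpiLCs (0.07 to 0.42). The second value did not hold when each cell was thinned to 5000 UMIs (−0.09, −0.38 to 0.22).

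Cnot10 and Cnot11, the partners of the N-terminal module, did not follow each other. Cnot10 stood at 75.4 CPM in WT ESCs (68.7 to 82.6), 83.2 in KO ESCs (80.5 to 85.9), 55.3 in WT 48h-EpiLCs (49.6 to 61.5) and 73.8 in KO 48h-EpiLCs (71.6 to 76.0). The WT 48h-EpiLCs were lowest and the KO ESCs highest, and WT ESCs and KO 48h-EpiLCs between them did not differ beyond counting error (0.03, −0.11 to 0.17). Cnot11 stood at 32.7 CPM in WT ESCs (28.3 to 37.5), 56.3 in KO ESCs (54.1 to 58.6), 46.3 in WT 48h-EpiLCs (41.1 to 52.0) and 62.9 in KO 48h-EpiLCs (60.9 to 65.0). Here the WT ESCs were lowest and the KO 48h-EpiLCs highest, and Cnot11 was the one member whose 4 classes were all separated by counting error from their neighbours in the order. Its part of all member UMIs was 5.96% in WT ESCs, 8.59% in KO ESCs, 10.1% in WT 48h-EpiLCs and 11.4% in KO 48h-EpiLCs, whereas that of Cnot10 stayed between 12.0% and 13.8%.

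Cnot4, the ubiquitin ligase, was captured little, with 33.3 CPM in WT ESCs (28.9 to 38.2), 40.6 in KO ESCs (38.7 to 42.5), 26.4 in WT 48h-EpiLCs (22.5 to 30.7) and 33.1 in KO 48h-EpiLCs (31.7 to 34.6). KO ESCs were highest, WT 48h-EpiLCs lowest, and the other classes lay together between them. Its log2 ratio of KO over WT was 0.28 in ESCs (0.08 to 0.50) and 0.33 in 48h-EpiLCs (0.10 to 0.57). The ESC value did not hold when cells were thinned to 5000 UMIs (0.049, −0.28 to 0.39), and with TMM scaling its interval included 0 (0.19, −0.023 to 0.40).

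**Figure D1:**
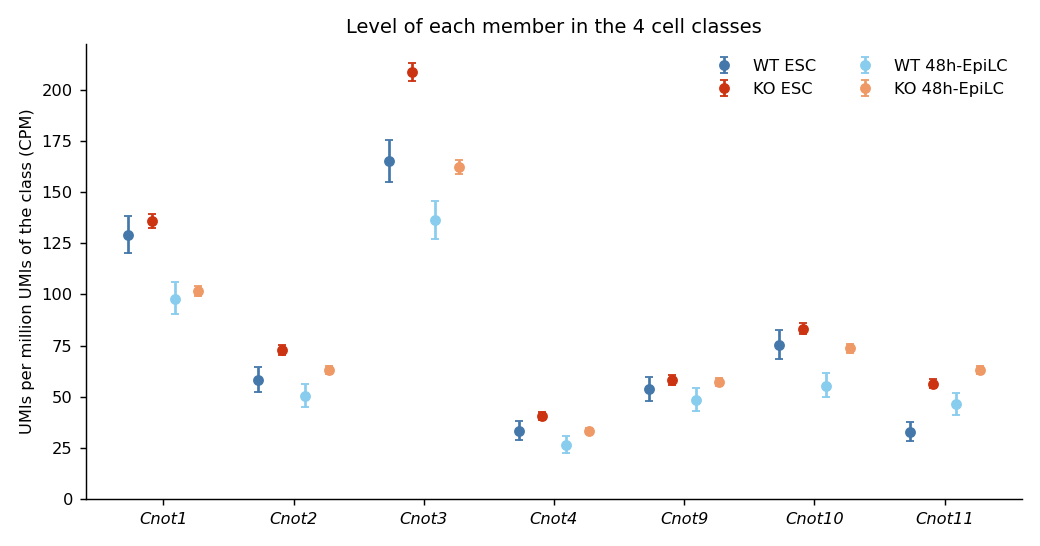
Level of each of the 7 members (x axis) in CPM of the class (y axis, from 0), with 1 point per cell class and exact 95% Poisson intervals that cover counting error only. Cnot3 and Cnot1 lie highest, from 97.9 to 209 CPM, and Cnot11 is the one member that is lowest in WT ESCs.

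The first question was whether loss of Cnot8 goes with other amounts of the transcripts that hold its complex together. In ESCs all 7 members had a ratio above 0, and 5 of 7 lay above the median of the 9277 genes with a mean of at least 5 CPM. The summed members stood at 548 CPM in WT and 656 in KO ESCs, a log2 ratio of 0.26 (0.21 to 0.31). That excess has to be read against all genes, whose median ratio was itself 0.125. Relative to that median the sum lay 0.135 higher, and with TMM scaling its ratio was 0.16 (0.11 to 0.21). A gene was called when, in CPM + 1 (a pseudocount of 1), the higher of the 2 classes was at least 25% above the lower. By this rule 2 of 7 members, Cnot3 and Cnot11, were higher in KO ESCs, where 29.7% of all genes were, and 0 of 7 were lower, where 12.4% of all genes were. With TMM scaling 21.8% of all genes were higher and 17.4% lower, and Cnot11 was the only member still called. The share of members called was thus close to that of all genes. Cnot2 fell just under the threshold on that scale.

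Cnot11 was the exception in size. Its KO over WT ratio in ESCs was 0.79 on the log2 scale (0.58 to 1.00), or 1.73-fold, and lay 0.66 above the median of all genes. It kept its sign in 13 of 13 alternative settings, between 0.67 and 0.90 (log2). When the lines were told apart by 8 marker genes in place of 5, which gave more WT cells, it was 0.73 (0.61 to 0.86). This setting added Dera and Slc25a13 as markers of WT and Ipp as a marker of KO. The added genes are neither reporter nor Y-linked genes, so this setting is not an independent check of the lines. The median of the 7 members on the scale of CPM + 1 was 0.28 and that of all genes 0.125, and 6 of 7 members, all but Cnot11, lay inside the middle 50% of all genes (−0.12 to 0.38).

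Markers of other cells differed between the WT and KO classes of ESCs. A cell of neither line, such as a feeder cell, could enter the KO class by its Y-linked UMIs, but not the WT class without tdTomato. Of the 267 kept cells of the ESC library with at least 3 fibroblast markers, 31.5% held at least 2 Y-linked UMIs. Whether the lines themselves differ in these markers was not tested. The summed level of 10 fibroblast markers was 19.7 CPM in WT (1 marker at 0, Lum) and 73.6 CPM in KO ESCs (0 at 0), and 0.69% of WT and 2.75% of KO ESCs held at least 3 of them. The 10 primitive endoderm markers summed to 47.9 CPM in WT and 68.3 in KO ESCs, with none at 0. Without the cells holding at least 3 markers of fibroblasts, primitive endoderm or 2-cell-like cells, the summed ratio was 0.27 (0.22 to 0.33) and that of Cnot11 0.82 (0.61 to 1.04), as large as with them. S-phase genes stood at 2026 CPM in WT and 2294 in KO ESCs and mitosis genes at 1812 and 2111. Leaving out the cells highest in either list gave 0.25 (0.19 to 0.30) for the sum and 0.78 (0.56 to 1.02) for Cnot11.

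In 48h-EpiLCs the summed members stood at 461 CPM in WT and 554 in KO cells, a log2 ratio of 0.27 (0.21 to 0.32), beside a median of 0.074 over 9385 genes. All 7 members had a ratio above 0 and 6 of 7 lay above that median; 4 of 7 (Cnot2, Cnot4, Cnot10, Cnot11) lay above the upper quartile of all genes at 0.28. By the 25% rule 2 of 7, Cnot10 and Cnot11, were higher in KO cells, against 21.1% of all genes, and 0 of 7 were lower, against 11.7% of all genes. Cnot2 and Cnot4 lay so near the threshold that a pseudocount of 0.1 CPM brought the count to 4, where 22.4% of all genes were called. Cnot10 had a ratio of 0.42 (0.26 to 0.58) and Cnot11 of 0.44 (0.27 to 0.62). The summed fibroblast markers here were 11.4 CPM in WT (3 of 10 at 0: Col3a1, Postn and Lum) and 15.2 in KO cells (0 at 0), S-phase genes 1637 and 2034, and mitosis genes 1746 and 2287. Without the cells holding at least 3 markers of fibroblasts, primitive endoderm or 2-cell-like cells, the ratios were as large, at 0.27 for the sum (0.21 to 0.33), 0.41 for Cnot10 (0.25 to 0.58) and 0.45 for Cnot11 (0.28 to 0.63). Without the cells highest in S-phase or mitosis genes, they were 0.25 for the sum (0.19 to 0.31), 0.37 for Cnot10 (0.20 to 0.53) and 0.40 for Cnot11 (0.22 to 0.59).

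**Figure D2:**
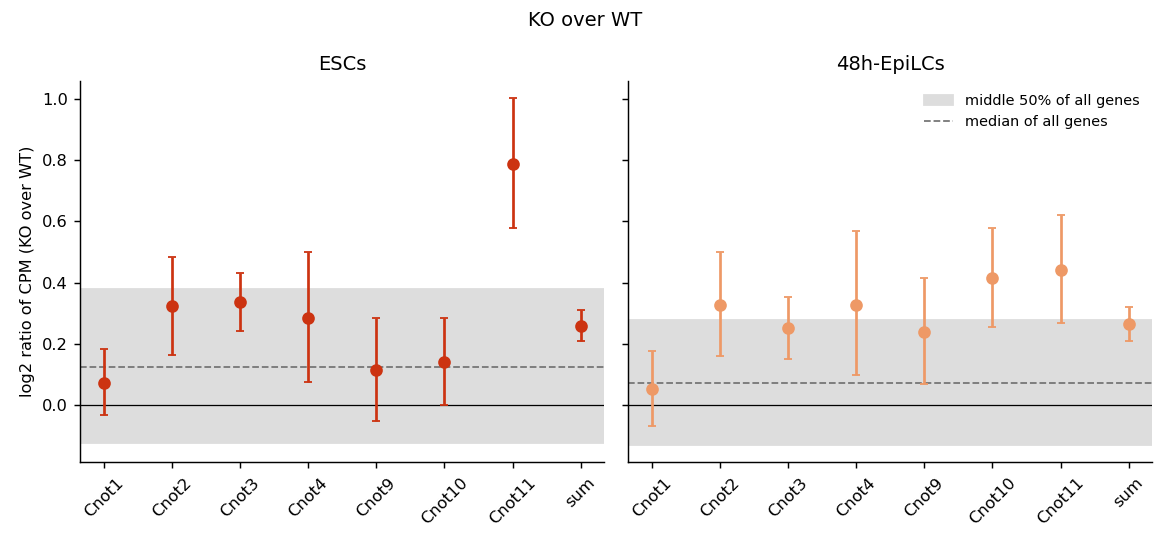
Log2 ratio of CPM of KO over WT cells (y axis) for each member and for the 7 summed (x axis), in ESCs (left) and 48h-EpiLCs (right), with exact 95% binomial intervals. The grey band holds the middle 50% of all genes and the dashed line their median; Cnot11 lies above the band in ESCs at 0.79, and Cnot1 lies near 0 at both stages.

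The KO over WT ratio of the sum was the same at both stages within counting error, with a difference (48h-EpiLC minus ESC) of 0.0056 (−0.07 to 0.08). That balance hid opposite differences in the N-terminal module. For Cnot10 the ratio was 0.27 larger in 48h-EpiLCs (0.06 to 0.48), and for Cnot11 it was 0.34 smaller (difference −0.34, −0.61 to −0.07). The intervals of the other 5 members included 0. Among the catalytic subunits Cnot8 differed in the direction of Cnot11 (difference −0.41, −0.66 to −0.16), and those of Cnot6, Cnot6l and Cnot7 had intervals that included 0. These intervals hold counting error alone, and with 1 library per stage the differences cannot be told apart from a difference between libraries.

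The second question was how the subunit transcripts change as cells leave the ESC state. The stage and line comparisons use the same 4 cell classes, so their values are not independent and are given side by side only. In WT cells the sum was 548 CPM in ESCs and 461 in 48h-EpiLCs, a log2 ratio of 48h-EpiLC over ESC of −0.25 (−0.32 to −0.18), beside a median of 0.028 over 9242 genes. By the 25% rule 3 of 7 members, Cnot1, Cnot4 and Cnot10, were lower in 48h-EpiLCs, where 22.5% of all genes were, and 1 of 7, Cnot11, was higher, where 26.4% of all genes were. Cnot10 differed most among the lower ones, at −0.45 (−0.65 to −0.24), followed by Cnot1 at −0.40 (−0.56 to −0.25). The intervals of Cnot2 (−0.21, −0.44 to 0.0097) and Cnot9 (−0.15, −0.38 to 0.08) included 0, and both values turned above 0 when cells were thinned to 5000 UMIs (0.049 and 0.14). Cnot11 went the other way from the lower members, at 0.50 (0.24 to 0.77).

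In KO cells the sum was lower by nearly as much, at −0.24 (−0.27 to −0.22), beside a median of −0.021 over 9478 genes. Here 2 of 7 members, Cnot1 and Cnot3, were lower by the 25% rule, against 23.4% of all genes, and 0 of 7 were higher, against 20.1% of all genes. Cnot1 had a ratio of −0.42 (−0.47 to −0.37) and Cnot3 of −0.36 (−0.40 to −0.32), which with TMM scaling became −0.38 and −0.32. The call of Cnot3 was lost with that scaling, under which 20.1% of all genes were lower. Cnot9 was near 0 at −0.03 (−0.10 to 0.05), and its sign turned with TMM scaling to 0.017. Cnot11 was again the one member above 0, at 0.16 (0.09 to 0.23). In both lines Cnot1, Cnot3, Cnot4 and Cnot10 were lower and Cnot11 was higher in 48h-EpiLCs beyond counting error.

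**Figure D3:**
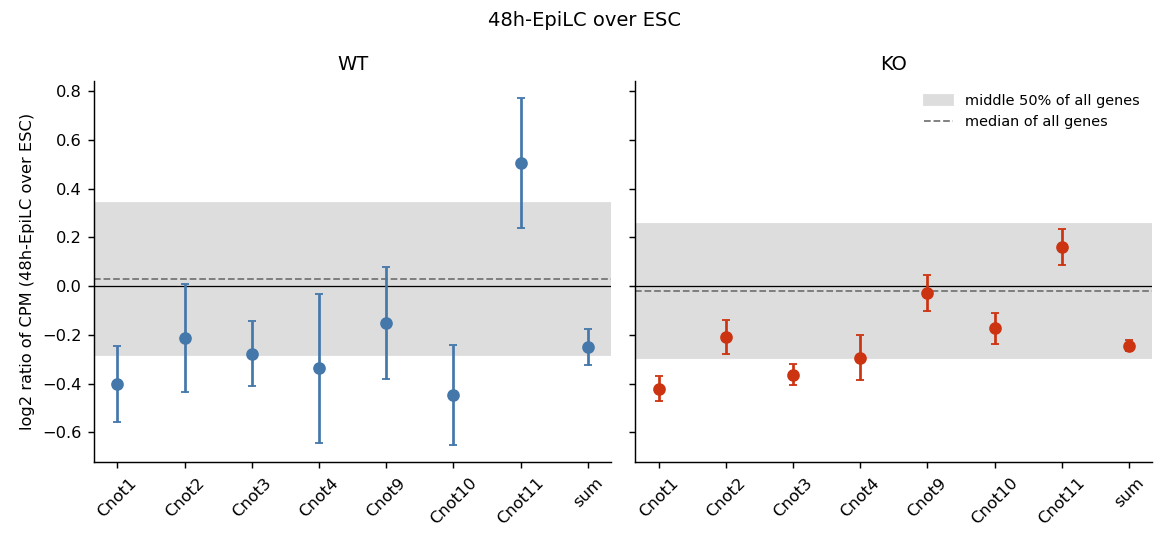
Log2 ratio of CPM of 48h-EpiLCs over ESCs (y axis) for each member and for the 7 summed (x axis), in WT (left) and KO cells (right), with exact 95% binomial intervals, the middle 50% of all genes as a grey band and their median as a dashed line. Cnot11 is above 0 in both lines (0.50 and 0.16) and Cnot1 is at −0.40 and −0.42.

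Counts in single cells were compared after each cell had been thinned at random to 5000 UMIs, which left out between 1 and 23 cells per class. At that depth Cnot11 was detected in 12.2% of WT ESCs (exact 95% interval 9.28 to 15.7), 23.1% of KO ESCs (21.6 to 24.7), 21.3% of WT 48h-EpiLCs (17.2 to 25.8) and 27.6% of KO 48h-EpiLCs (26.0 to 29.3). The order of the classes was that of the CPM. Cnot3 was detected in 57.1% of WT ESCs (52.3 to 61.9), 64.9% of KO ESCs (63.2 to 66.7), 45.2% of WT 48h-EpiLCs (40.1 to 50.5) and 55.8% of KO 48h-EpiLCs (54.0 to 57.6). These shares reflect capture, since most cells held few UMIs of any member. The genes are transcribed in all cell types, so no cell type served as a background for free RNA.

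At least 3 of the 7 members were detected together in 35.7% of WT ESCs (31.2 to 40.4), 47.2% of KO ESCs (45.4 to 49.0), 25.6% of WT 48h-EpiLCs (21.2 to 30.4) and 38.1% of KO 48h-EpiLCs (36.4 to 39.9). No member at all was seen in 7.14% (4.91 to 9.99), 4.57% (3.84 to 5.39), 10.4% (7.43 to 13.9) and 6.94% (6.05 to 7.92) of these cells. KO cells thus held more members per cell than WT cells at each stage. They also held more genes of any kind before thinning, with a median of 3642 in WT and 3878 in KO ESCs. In 48h-EpiLCs the medians were 3992 and 4467, where KO cells were also deeper. No share over all genes was taken at equal depth, so the members were not set apart from genes in general. Without thinning, at least 3 members were detected in 85.8% of WT and 92.6% of KO ESCs, and in 87.5% of WT and 95.2% of KO 48h-EpiLCs. The variance of the thinned counts divided by their mean, which is 1 for random sampling of 1 common level, lay between 0.90 (Cnot11, WT 48h-EpiLCs) and 1.18 (Cnot11, WT ESCs) over the 7 members and 4 classes. The medians over all genes of the same mean range were 1.02 to 1.04, and the value of Cnot11 in WT ESCs, above the middle 50% of those genes (0.98 to 1.09), rests on 53 cells with a UMI.

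**Figure D4:**
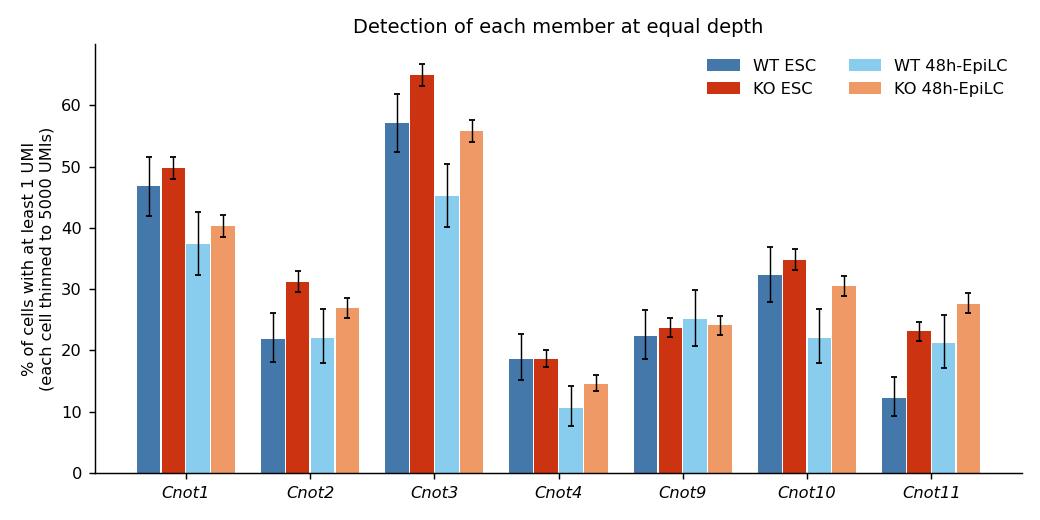
Percentage of cells with at least 1 UMI of each member (y axis, from 0) after thinning every cell to 5000 UMIs, in the 4 cell classes, with exact 95% binomial intervals. Cnot11 is detected in 12.2% of WT ESCs and in 21.3% to 27.6% of the other classes.

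Both lines together, the kept cells of the ESC library included 267 cells with at least 3 of the 10 fibroblast markers (Col1a1, Col1a2, Col3a1 and others), and these had less of most members. Their summed level was 383 CPM (364 to 402) against 610 CPM in the other cells, a log2 ratio of −0.67 (−0.75 to −0.60). Cnot1 was lowest in relative terms, with 72.6 CPM against 131 (−0.85, −1.02 to −0.69). Cnot10 had 45.7 against 79.0 CPM (−0.79, −1.01 to −0.58) and Cnot3 117 against 192 CPM (−0.72, −0.85 to −0.59). Cnot4, at 33.7 against 38.1 CPM, did not differ beyond counting error (−0.17, −0.43 to 0.07), and Cnot11 differed little (−0.32, −0.55 to −0.09). The pluripotency gene Pou5f1 stood at 37.9 CPM in these cells and 82.2 in the others, so the marked cells were not free of ESC transcripts.

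The 272 cells with at least 3 primitive endoderm markers held the members at the level of the other ESCs, with a summed ratio of 0.03 (−0.03 to 0.09) and single ratios from −0.06 for Cnot3 to 0.17 for Cnot9, each with an interval that included 0. In the 10% of cells richest in S-phase genes the sum was higher by 0.15 in ESCs (0.12 to 0.19) and by 0.18 in 48h-EpiLCs (0.15 to 0.22), with all 7 members above 0 in both libraries. In those richest in mitosis genes it was higher by 0.05 (0.02 to 0.08) and 0.06 (0.03 to 0.09). Cells with at least 2 Y-linked UMIs were more frequent in the S-phase set than in the other cells (35.2% against 26.4% in ESCs, 43.8% against 30.7% in 48h-EpiLCs). The same held for the mitosis set (32.6% against 26.7%, and 46.7% against 30.4%). Line and phase were not separated here, and no median over all genes was taken. Cells with 2-cell-like markers were few, 22 in the ESC and 34 in the 48h-EpiLC library, and had summed ratios of −0.26 (−0.52 to −0.02) and −0.33 (−0.52 to −0.14).

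**Figure D5:**
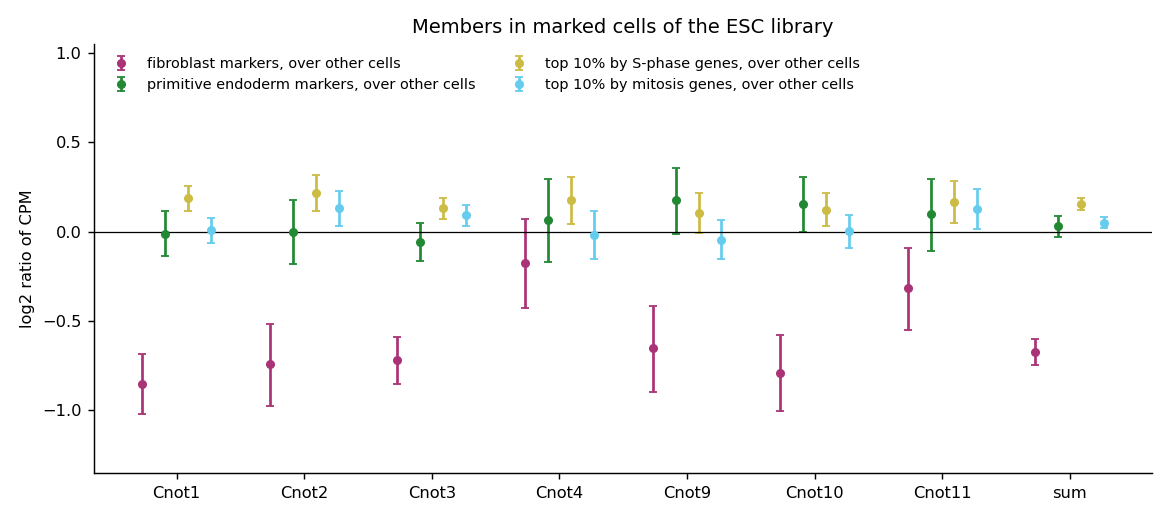
Log2 ratio of CPM in marked cells over the other kept cells of the ESC library (y axis), for each member and the 7 summed (x axis), with exact 95% binomial intervals. Cells with fibroblast markers lie below 0, at −0.67 for the sum, cells with primitive endoderm markers near 0, and the cells highest in S-phase genes at 0.15.

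Of the 4 deadenylases of the complex, 1 was called higher and 0 lower in KO cells at each stage, in both cases Cnot8. Beside these counts and those of the next list, 29.7% of all genes were higher and 12.4% lower in KO ESCs. In KO 48h-EpiLCs 21.1% of all genes were higher and 11.7% lower. The ratios of Cnot8 were 0.74 (0.56 to 0.93) in ESCs and 0.33 (0.17 to 0.51) in 48h-EpiLCs. Cnot7, the other Caf1-type enzyme, had ratios of 0.22 (0.02 to 0.42) and 0.13 (−0.06 to 0.32). With TMM scaling the interval of its ESC value included 0 (0.12, −0.078 to 0.32). Of 7 measured genes listed here as deadenylases outside the complex, 2 were higher (Angel2 at 0.58 and Pan3 at 0.36) and 1 lower (Parn at −0.44) in KO ESCs. In 48h-EpiLCs 1 was higher and 0 lower. Whether these genes all act as deadenylases was not tested. Their largest difference lay between the stages: Noct, which acts in circadian metabolism, went from 88.2 CPM in WT ESCs to 43.3 in WT 48h-EpiLCs (−1.03) and from 108 to 51.2 CPM in KO cells (−1.08).

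The shares of all genes called, 29.7% higher and 12.4% lower in KO ESCs and 21.1% and 11.7% in KO 48h-EpiLCs, hold for the lists that follow, and no list is set apart from them by a test. Of 5 measured Tob and Btg adaptors, which bind the Caf1-type enzymes, 1 was higher and 1 lower in KO ESCs and 0 and 1 in KO 48h-EpiLCs. The lower one was Btg3 at both stages, at 94.6 CPM in WT and 55.8 in KO ESCs (−0.76, −0.89 to −0.63) and 136 and 85.0 in 48h-EpiLCs (−0.68, −0.78 to −0.57). Among the RNA-binding proteins that recruit the complex, 7 of 18 were higher and 1 lower in KO ESCs and 3 of 15 and 1 in KO 48h-EpiLCs. Zfp36l1, which brings the complex to AU-rich mRNAs, was lower in KO ESCs (31.7 against 62.2 CPM, −0.97), and its relative Zfp36l2 was higher (41.5 against 27.8 CPM, 0.58). Ythdf2, the reader of m6A marks that binds Cnot1, was higher in KO 48h-EpiLCs (115 against 79.6 CPM, 0.53). Of 11 partners in repression and decapping, 4 were higher and 1 lower in KO ESCs and 0 and 1 in KO 48h-EpiLCs. The lower one was Ddx6 both times, the helicase that docks on the middle of Cnot1, at 159 CPM in WT and 104 in KO ESCs (−0.61, −0.71 to −0.51) and 117 and 86.7 CPM in 48h-EpiLCs (−0.43, −0.54 to −0.32). Medians of the 4 lists outside the complex ran in ESCs, KO over WT, from −0.08 for the adaptors to 0.23 for the recruiters, beside 0.28 for the 7 members and 0.125 for all genes.

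From WT ESCs to WT 48h-EpiLCs, where 26.4% of all genes were higher and 22.5% lower, 2 of the 5 measured adaptors were higher and 1 lower, 2 of 16 recruiters higher and 5 lower, and 2 of 11 decapping partners higher and 2 lower. Zfp36l1 had the largest of these ratios, from 62.2 to 18.3 CPM (−1.76, −2.08 to −1.46), and the decapping enzyme Dcp2 went from 54.6 to 26.5 CPM (−1.04, −1.32 to −0.77). In KO cells, where 20.1% of all genes were higher and 23.4% lower, 2 of 5 adaptors were higher and 1 lower, 1 of 18 recruiters higher and 8 lower, and 1 of 11 decapping partners higher and 3 lower.

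The members were also compared by the shape of their levels over the 4 classes, as the Euclidean distance between log2(CPM + 1) values centred on the mean of each gene, against 4744 other genes with at least 20 CPM in every class. This is a description over 4 points that share 2 libraries. Among the members Cnot3 and Cnot4 were closest (0.064), followed by Cnot2 and Cnot4 (0.10). Cnot11 was at least 0.62 from every other member, and Cnot10, its module partner, lay 0.77 away. The genes most like Cnot1 were Rrp1b (0.014), Morc3 (0.034) and Calr (0.038), and those most like Cnot3 were Ercc3, 2310022A10Rik and Nup153.

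Protein-coding genes within 500 kb of each member were also read, a description added after the values had been seen. The 3 measured neighbours of Cnot11 had KO over WT ratios between 0.09 and 0.14 in ESCs and between −0.08 and 0.09 in 48h-EpiLCs, on the scale of CPM + 1, and none was called. The 14 neighbours of Cnot3 had a median of 0.31 in ESCs and 0.34 in 48h-EpiLCs, with 7 of 14 called higher at each stage, against 29.7% and 21.1% of all genes, beside 0.34 and 0.25 for Cnot3 itself on the same scale. The 13 neighbours of Cnot9 measured in ESCs had a median of 0.33, with 7 of 13 called higher, beside 0.11 for Cnot9 itself. The 9 neighbours of Cnot10 had a median of 0.26 in ESCs and −0.012 in 48h-EpiLCs, while Cnot10 stood at 0.14 and 0.41. Of these 9, 3 were called higher in ESCs and 1 in 48h-EpiLCs. For Cnot9 in 48h-EpiLCs 12 were measured, with a median of 0.17, 2 called higher and 1 lower. In ESCs the medians were 0.22 for Cnot1 (2 of 8 higher), 0.29 for Cnot2 (1 of 3) and 0.40 for Cnot4 (3 of 5). In 48h-EpiLCs they were 0.125 (1 of 8), 0.086 (0 of 3) and 0.22 (1 of 6).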

How the data were processed

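The deposited values were whole-number UMI counts. The authors obtained them with default settings of Cell Ranger 3.0.2 from an mm10 reference extended by tdTomato; Seurat 4 is also named in their processing notes. No normalisation of the deposited counts was stated. Library depth was 144584246 and 163771168 UMIs. Cells under 1000 genes or over 10% mitochondrial UMIs were removed, and lines were assigned per cell by tdTomato and Y-linked UMIs as given in the report. No doublet caller was run: the line rule leaves out cells with both kinds of marker, and leaving out the 10% of cells with most UMIs was an alternative.

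UMIs were summed per class (Python 3.11.15, numpy 2.4.6, scipy 1.17.1) and divided by the class total to give CPM. Genes with a mean of at least 5 CPM in the 2 classes were compared, on log2(CPM + 1) for calls at a 25% difference and as plain ratios for members. This scale understates the change of low genes. TMM factors came from edgeR 4.0.16 (R 4.3.3) and no model was fitted. Scripts were tested on simulated data. From each list of other decay genes the 2 highest and 2 lowest called genes of at least 20 CPM in 1 class could be named, and the deadenylases always. The members, lists and alternatives were chosen with earlier results of these data known. The genes most like Cnot11 in pattern are not reported here.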

Additional observations from a re-analysis of the deposited data

How the results depend on the processing

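No paired analysis was possible because there was 1 library per stage and the labels give no replicates, so no library could be left out either. The alternatives changed the scaling, the genes in the total, the weight and depth of cells, the filters and the line rules; leaving out the cells highest in S-phase or mitosis genes was chosen after seeing the data. Of the ratios of single members under these alternatives, 348 stayed within the counting interval of the main value and 15 moved outside it. A further 1 turned the sign of a main value whose interval excluded 0. The 348 include stage ratios that an alternative could not move, because it changed the rule for the other line only. In 5 member ratios 1 alternative turned the sign: thinning to 5000 UMIs for KO over WT of Cnot9 in 48h-EpiLCs (−0.0865) and for 48h-EpiLC over ESC of Cnot2 (0.049) and Cnot9 (0.14) in WT cells, and TMM scaling for KO over WT of Cnot1 in ESCs (−0.025) and for 48h-EpiLC over ESC of Cnot9 in KO cells (0.017). The thinned values come from 1 random draw, with 799 member UMIs in WT 48h-EpiLCs, and depth limits them. The cause of the other changes was not tested.

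For the summed members, the KO over WT ratio in ESCs was 0.161 with TMM scaling and 0.327 with lines by 8 marker genes; in 48h-EpiLCs it was 0.363 in cells of 8000 to 20000 UMIs and 0.367 when thinned. The ratio of 48h-EpiLC over ESC was −0.339 in WT cells when thinned and −0.200 in KO cells with TMM scaling. The difference of the KO over WT ratio between stages was 0.0938 when thinned. Every summed ratio of line or stage kept its sign in all 13 alternatives. Not all of these could move each ratio. The KO rule of at least 4 Y-linked UMIs changed no WT cell, so the WT stage ratio stayed at −0.25. The WT rule by tdTomato alone changed no KO cell, so the KO stage ratio stayed at −0.244. Members called higher in KO ESCs numbered 1 at 1.5-fold (12.4% of all genes) and 1 with TMM scaling (21.8%), and in KO 48h-EpiLCs 4 with a pseudocount of 0.1 CPM (22.4%) and 0 at 1.5-fold (8.07%). Between stages at 1.5-fold, 0 were called higher (13.3% of all genes) and 0 lower (11.4%) in WT cells and 0 lower in KO cells (10.1%), and with TMM scaling 1 was lower in KO cells (20.1%). At least 3 members were detected, when thinned to 3000 UMIs, thinned to 8000 UMIs and not thinned, in 14.5%, 61.2% and 85.8% of WT ESCs and 20.2%, 77.4% and 92.6% of KO ESCs. In 48h-EpiLCs the shares were 9.26%, 56.2% and 87.5% of WT cells and 15.8%, 68.5% and 95.2% of KO cells. KO cells were above WT cells at each of these depths, and no share over all genes was taken beside them.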
